A study of Mus musculus with 8 samples.

Results

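Axon guidance genes of the semaphorin, plexin, Eph, ephrin and netrin systems were examined for 5-methylcytosine (5mC) in neural precursor cells (NPCs) with or without knockdown of *Tet3*. The members were the autosomal protein-coding genes of the GENCODE vM1 annotation (mouse genome build mm9) whose symbol starts with Sema, Plxn, Epha, Ephb, Efna, Efnb, Ntn or Unc5, together with *Dcc*, *Nrp1* and *Nrp2*. The rule used gene names alone and gave 63 of 21275 genes, of which 20 were semaphorins, 7 plexins, 14 Eph receptors, 7 ephrins, 13 netrins, Unc5 receptors or *Dcc*, and 2 neuropilins. *Unc50* and *Unc5cl* met the rule by name although they are not guidance genes, and they were counted with the netrin group. Of 757812 CpGs listed in the files, 1910 lay in a promoter of a member (from -1 kb to +0.5 kb of an annotated transcription start site, TSS) and 2701 in a member's body, which is the rest of the gene.

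The cells were derived from A2lox.cre mouse ES cells, a male E14 line of strain 129P2/OlaHsd, as clones carrying a doxycycline-inducible shRNA. Control NPCs expressed a Scrambled, non-targeting shRNA (shScr) and knockdown NPCs an shRNA against *Tet3* (shTet3), and both received doxycycline at 2 µg/ml for 5 days. Each shRNA had 2 replicates whose DNA was split into a BS library (bisulphite treatment, where C calls come from 5mC and from 5-hydroxymethylcytosine, 5hmC) and an oxBS library (oxidation first, where C calls come from 5mC alone), which makes 8 libraries. The sources do not say that the replicates were separate clones or separate differentiations, so the spread between them may be technical.

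Semaphorins are secreted or membrane-bound ligands that act through plexin receptors, with neuropilins as co-receptors for the secreted class. Ephrins are membrane-anchored ligands of the Eph receptor tyrosine kinases. Netrin-1 attracts growing axons through DCC and repels them through UNC5 receptors, and all these systems also guide the migration of neural cells.

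The libraries held 42516767 to 61865967 calls with a median coverage of 43 to 54 per CpG, and the median coverage over members was 41 to 71. A CpG was tested where each of the 4 libraries compared had 10 or more calls. Differentially methylated positions (hypo-DMPs for loss, hyper-DMPs for gain) passed *q* < 0.01 with pooled levels more than 10 percentage points apart. The level of 5mC over all CpGs was lower in shTet3, and the control replicates themselves differed, with 27.2% in shScr 1 and 32.3% in shScr 2 against 22.7% and 22.9% in the shTet3 libraries. No expression was measured in these files, so the knockdown could not be checked here, and in bulk DNA a change in the makeup of the cells and a change within cells cannot be told apart. Cell identity was looked at through marker promoters alone. The promoter of *Nes*, a neural precursor marker, had 5.99% and 5.36% 5mC in shScr and 2.87% and 4.76% in shTet3. The promoter of the pluripotency gene *Pou5f1* had 42.3% and 44.5% against 39.4% and 48.0%, with overlapping groups. At 2 other pluripotency genes both shTet3 libraries lay below both shScr libraries, with 59.7% and 65.9% against 50.2% and 45.2% over 3 CpGs of *Tcl1* and 11.2% and 7.22% against 3.99% and 5.46% over 15 CpGs of *Esrrb*. At *Pax6* the shScr replicates differed (41.1% and 24.5%), and *Nanog* had no CpG that could be tested. At *Tubb3*, another neural marker, the groups overlapped (6.57% and 3.08% against 3.75% and 2.54%). Among genes of other germ layers, *Gata4* also had both shTet3 libraries lower, with 5.8954% and 5.5967% against 4.3197% and 4.9739%. At *Sox17* and *T* the groups overlapped, and *Gata6* was near 0 throughout. This order was thus not limited to pluripotency genes, and its share over the promoters of all genes was not tested. The part of cell identity in the changes was not tested.

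Promoters of guidance genes were mostly unmethylated in control NPCs, as were those of all genes. Of 1654 promoter CpGs tested in the oxBS libraries, 1498 (90.6%) had less than 10% 5mC in shScr, beside 89.0% over all genes. A promoter mean under 5% was found in 36 genes of the 55 tested. Promoters of *Efna2*, *Efnb2*, *Sema4c*, *Unc5b* and *Nrp1* were among those near 0 in every oxBS library. The mean over all member promoters was 4.49% and 4.82% in shScr against 3.53% and 3.20% in shTet3. The groups did not overlap, the difference of means was -1.29 percentage points (4.66 ± 0.235 against 3.36 ± 0.237, mean ± SD, n = 2 each), and over the promoters of all genes it was -1.15. With 2 libraries against 2, an exact permutation test cannot give a p below 0.33, which was the value here.

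At single promoter CpGs, 36 of 1654 were hypo-DMPs (2.18%), beside 2.00% over the promoters of all genes, so that the share in guidance genes lay near the background. No promoter CpG was a hyper-DMP by the logistic likelihood ratio test, beside 0.0539% over all genes, and 3 had a higher level in shTet3 by over 10 points at an unadjusted p below 0.05. Fisher's exact test on pooled calls also called 0 hyper-DMPs there, but leaving out 1 oxBS library gave 1 without shScr 1, 3 without shScr 2, 2 without shTet3 1 and 3 without shTet3 2. An F test that allows for overdispersion called 0 CpGs in either direction, so none of the 36 hypo-DMPs passed it. With 2 libraries per group this F test can hardly call any CpG after adjustment over all CpGs, so its 0 calls decide nothing. The hypo-DMPs fell in 11 genes. Eph receptors held 13 of 322 CpGs tested, the netrin group 13 of 374, semaphorins 10 of 401, plexins 0 of 311, ephrins 0 of 220 and neuropilins 0 of 26. The BS libraries called 1 in plexins and 1 in ephrins, and without shScr 2 *Plxnb1* had 3 or more in oxBS. In shScr 96.1% of plexin, 98.2% of ephrin and 100% of neuropilin promoter CpGs had under 10% 5mC. At such CpGs a loss of over 10 points can hardly be called. This share was 89.8% in Eph receptors, 86.1% in the netrin group and 86.3% in semaphorins. No difference between families was tested. Of the 36 hypo-DMPs, 31 had both shTet3 libraries below both shScr libraries, an order partly fixed because they were called on these same libraries. Over all 1654 promoter CpGs both shTet3 libraries lay below both shScr libraries at 144 (8.71%), beside 6.54% over all genes. The opposite order held for 53 (3.20%), beside 2.20%.

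The genes with 3 or more promoter hypo-DMPs were *Unc5a* with 8, *Sema6d* with 6, *Epha8* with 5, *Ephb3* with 4 and *Dcc* with 3. Among genes with at least 3 promoter CpGs tested these were 5 of 54 (9.26%), beside 6.76% over all genes. The mm9 sequences of the densest groups of hypo-DMPs in 4 of them are given here because they hold the CpGs that the following values describe. They are forward-strand reference sequence with the CG of each hypo-DMP in capitals, from chr13:55097433-55097618 for *Unc5a*, chr2:123916036-123916091 for *Sema6d*, chr4:136512396-136512541 for *Epha8* and chr16:21203977-21204175 for *Ephb3*.
Unc5a: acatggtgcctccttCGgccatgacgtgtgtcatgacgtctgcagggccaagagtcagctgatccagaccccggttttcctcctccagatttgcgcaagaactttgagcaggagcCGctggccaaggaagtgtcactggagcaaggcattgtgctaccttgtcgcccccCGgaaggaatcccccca
Sema6d: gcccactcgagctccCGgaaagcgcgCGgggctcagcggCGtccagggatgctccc
Epha8: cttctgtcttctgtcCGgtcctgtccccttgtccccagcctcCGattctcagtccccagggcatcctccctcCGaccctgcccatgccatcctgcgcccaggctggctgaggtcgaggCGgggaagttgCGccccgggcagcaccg
Ephb3: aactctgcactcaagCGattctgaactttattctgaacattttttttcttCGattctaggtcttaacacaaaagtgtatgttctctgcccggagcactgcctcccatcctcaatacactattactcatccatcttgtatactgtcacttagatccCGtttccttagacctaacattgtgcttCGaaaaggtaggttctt

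*Unc5a* encodes a netrin receptor that mediates repulsion, and its annotation (chromosome 13, 55050772 to 55107379, + strand) has 3 TSSs. At the 5'-most one, the 46 CpGs tested were almost free of 5mC, with 3.0% and 1.75% in shScr against 2.90% and 1.43% in shTet3, and none was a hypo-DMP. The TSS 47.1 kb further into the gene had 67.4% and 81.8% in shScr against 47.9% and 53.2% in shTet3 over 11 CpGs, 5 of them hypo-DMPs. The TSS at 54.3 kb had 64.4% and 84.8% in shScr against 59.8% and 45.6% in shTet3 over 7 CpGs, 3 of them hypo-DMPs. The loss at *Unc5a* therefore lay inside the gene, at coding exons and introns, and not at its first promoter. At the middle capital CG of the sequence above, in a coding exon, the level was 97.2% (coverage 36) and 85.2% (27) in shScr against 62.2% (82) and 63.5% (52) in shTet3, a pooled difference of -29.4 points (*q* = 8.06e-05). The BS libraries gave 78.4% and 95.0% against 50% and 67.7% at this CpG, and 10 hypo-DMPs over the gene's promoters.

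*Ephb6*, an Eph receptor without kinase activity, showed the same arrangement. At its 5'-most TSS the 41 CpGs tested were near 0 in all oxBS libraries, and none was a hypo-DMP. Over 4 CpGs at the TSS 14.5 kb further in, the level was 69.3% and 80.9% in shScr against 60% and 48.3% in shTet3, and 2 were hypo-DMPs. The one with the larger difference, in a coding exon, is the capital CG of chr6:41569678-41569739 (mm9, forward strand).
Ephb6: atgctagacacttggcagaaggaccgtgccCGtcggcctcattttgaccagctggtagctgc

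Its level was 88.7% and 89.5% in shScr against 53.5% and 50.9% in shTet3, with coverages of 106, 76, 58 and 53, and the pooled difference at this *Ephb6* CpG was -36.8 points (*q* = 5.99e-10). In the BS libraries the pooled difference at this CpG was -17.1 points, which did not pass the threshold (*q* = 0.0163). *Sema5b*, a transmembrane semaphorin with thrombospondin repeats, had 2 hypo-DMPs of 10 CpGs at a TSS 119.9 kb into the gene and 0 of 14 at the 5'-most. There the mean was 21.7% in shScr 1 and 52.8% in shScr 2 against 26.9% and 26.3%, so the groups overlapped. *Ntng1*, which encodes the membrane-anchored netrin-G1, had a TSS 361.1 kb in with 2 CpGs tested. One of them, in a UTR exon, had the largest pooled difference among the promoter hypo-DMPs, -48.0 points, with 90.0% and 80.0% in shScr against 21.4% and 46.7% in shTet3 at low coverage (10, 30, 14 and 15).

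Dividing all member promoters in this way, a division made after these values were seen, 22 of 1458 CpGs (1.51%) around 5'-most TSSs were hypo-DMPs and 14 of 196 (7.14%) around TSSs further into the gene. Over all genes the same division gave 1.60% and 4.28%. The TSSs further into the gene came from 20 members, and all 8 promoter hypo-DMPs of *Unc5a* were among the 14. *Unc5a* had already been named for its hypo-DMPs. Mean 5mC in shScr was 3.41% and 3.30% around the 5'-most TSSs and 12.5% and 16.2% around the others, so the division also separated CpGs by their level in control NPCs.

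**Figure D1:**
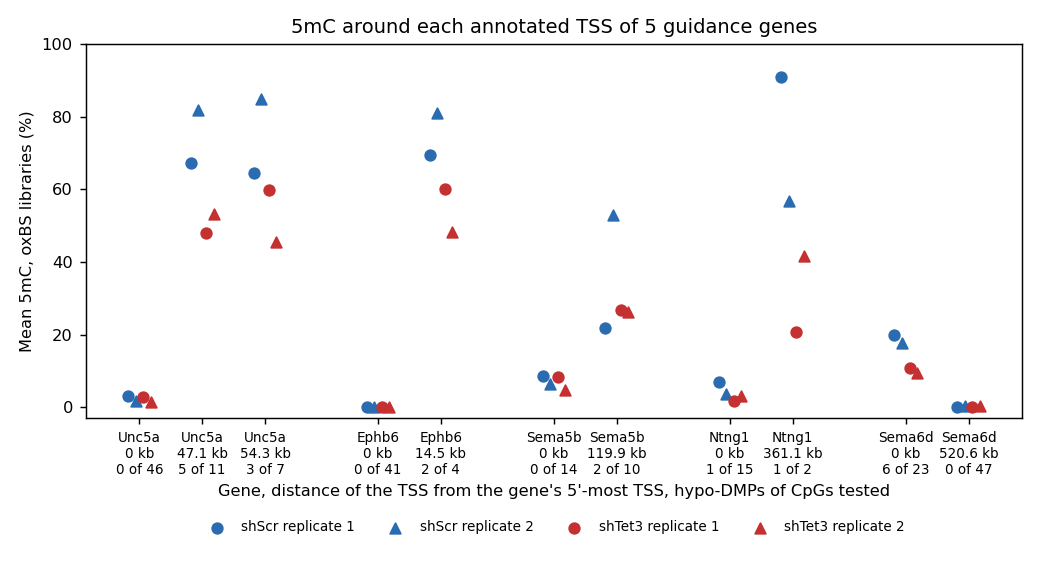
Mean 5mC in each oxBS library (y axis, percent) over the CpGs tested from -1 kb to +0.5 kb of annotated TSSs of 5 genes, with the distance from the gene's 5'-most TSS and the hypo-DMPs of CpGs tested below each. At *Unc5a* and *Ephb6* the 5'-most TSS lies near 0 in all libraries and the TSSs further in are lower in both shTet3 libraries than in both shScr libraries, while at *Sema6d* the hypo-DMPs lie at the 5'-most TSS.

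*Sema6d*, a transmembrane ligand of plexin A1, showed the reverse order. Its 5'-most TSS (chromosome 2, 123915705) had 20% and 17.6% in shScr against 10.7% and 9.49% in shTet3 over 23 CpGs, all 6 hypo-DMPs among them. The 47 CpGs around a TSS 520.6 kb further in were below 1% in every oxBS library. Of the 3 CpGs in capitals above, the middle one was separated between groups (20.1% and 14.1% against 5.43% and 6.41%), while at the other two shScr 2 fell between the shTet3 libraries. *Sema6d* was the one gene that kept 3 or more promoter hypo-DMPs whichever oxBS library was left out. The BS libraries gave no hypo-DMP in its promoters, with means over 60 CpGs of 7.01% and 5.62% in shScr against 4.28% and 4.21% in shTet3.

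*Epha8*, a receptor for ephrin-A ligands, has 1 annotated TSS. Over the 40 promoter CpGs tested the mean was 12.6% and 13.5% in shScr against 9.16% and 7.79% in shTet3. All 5 hypo-DMPs lay in the intron sequence printed above, 206 to 320 bases past the TSS, and each had both shTet3 libraries below both shScr libraries. At the best covered of them, the first capital CG, the level was 72.0% (coverage 182) and 66.4% (137) in shScr and 55.3% (217) and 50.5% (105) in shTet3, a pooled difference of -15.9 points (*q* = 0.000483). None of the 5 was a hypo-DMP in the BS libraries, and the promoter mean there was 12.3% and 13.3% against 11.6% and 11%. A test of whether the change differed between BS and oxBS called none of the 1520 member promoter CpGs it could use, *Epha8* included, beside 0.0503% over all genes, and 3 of 2203 in bodies (0.136%), beside 0.316%.

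*Ephb3*, a receptor for ephrin-B ligands, had its 4 hypo-DMPs upstream of the gene, at -836 to -669 bases from the TSS, and the control replicates disagreed there. At the second capital CG of its sequence the level was 8.11% in shScr 1 and 66.4% in shScr 2, with 28.0% and 33.3% in shTet3 between them, although the pooled difference was -21.6 points (*q* = 0.000984). The groups overlapped at 3 of the 4 CpGs. At the first capital CG shTet3 1 (13.98%) lay below both shScr libraries (20% and 53.45%) and shTet3 2 (21.33%) between them. Without shScr 2 *Ephb3* no longer had 3 promoter hypo-DMPs, and the same held without shTet3 1.

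*Dcc*, the receptor through which netrin-1 attracts axons, had 55.9% and 53.2% in shScr against 30.2% and 26.9% in shTet3 over 6 promoter CpGs. The means of the replicates agreed to within a few points on each side. At single CpGs the replicates lay over 10 points apart at 2 of the 6 in shScr and 3 in shTet3. The difference of -26.0 points was the most negative promoter change among the 55 genes. Its 3 hypo-DMPs lay 302 to 338 bases past the nearest TSS in a UTR exon. Coverage was low, from 18 to 42 at the CpG with the highest level in shScr 1, and leaving out any one oxBS library left fewer than 3 hypo-DMPs at *Dcc*. *Unc5a* fell under 3 without shScr 2 and *Epha8* without shTet3 1. In the BS libraries 2 promoter CpGs of *Dcc* could be tested, with 45.9% and 31.9% in shScr against 24.7% and 20.3% in shTet3, and 1 was a hypo-DMP. The only oxBS hypo-DMP of *Dcc* tested there read 53.4% and 30.4% against 44.2% and 30.6%, with overlapping groups. It was not called (-9.94 points, *q* = 0.446).

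The other promoter hypo-DMPs were 2 in each of *Epha6*, *Ephb6*, *Ntng1* and *Sema5b* and 1 in each of *Sema3b* and *Sema6b*. The observed over expected CpG ratio was taken around the 5'-most TSS of each gene alone. Its medians were 0.657 in the 11 genes with a promoter hypo-DMP and 0.641 in the 44 without. The sequence around TSSs further into the gene, where 14 of the hypo-DMPs lay, is not in this ratio.

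Gene bodies carried much more 5mC and lost more of it. Over 2393 body CpGs in 60 genes the mean was 39.6% in shScr 1, 46.7% in shScr 2, 34.1% in shTet3 1 and 33.3% in shTet3 2. Both shTet3 libraries lay below both shScr libraries, and the difference of means was -9.42 points (43.1 ± 5.03 against 33.7 ± 0.528, mean ± SD, n = 2 each; exact permutation p = 0.33, the smallest possible). Over the bodies of all genes the difference was -10.5 points. The controls were 7.12 points apart and the shTet3 libraries 0.747, and the choice of control library moved the result, with a difference of -5.90 points without shScr 2 and -13.0 without shScr 1.

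Of these 2393 CpGs, 440 (18.4%) were hypo-DMPs, beside 21.9% over the bodies of all genes, and 3 (0.125%) were hyper-DMPs, beside 0.139%. Without shScr 2 the number of hypo-DMPs was 196 and that of hyper-DMPs 12, and without shScr 1 there were 8 hyper-DMPs. At 404 of the 440 (91.8%) both shTet3 libraries lay below both shScr libraries, and the median pooled difference was -24.5 points. The hypo-DMPs were called on the difference in these same libraries, so both values are partly fixed by the selection. Over all 2393 body CpGs the same order held for 895 (37.4%), beside 40.1% over all genes, and the opposite order for 75 (3.13%), beside 2.14%. The F test that allows for overdispersion called 0 hypo-DMPs in bodies and 0 in promoters, with 72 and 3 at an unadjusted p below 0.05. With 2 libraries per group this F test can hardly pass the adjustment over all CpGs, so its counts of 0 decide nothing. The likelihood ratio test behind the calls covers counting error and not the spread between replicates.

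In bodies the mean was lower in shTet3 in each family. The difference was -9.50 points in semaphorins, -8.74 in plexins, -8.85 in Eph receptors, -8.65 in ephrins, -10.5 in the netrin group and -9.47 in neuropilins, and in each family both shTet3 libraries were below both shScr libraries. The share of hypo-DMPs ran from 11.7% in ephrins (17 of 145) to 20.2% in the netrin group (127 of 628). The neuropilin mean joins a gene with almost no change, *Nrp1*, to *Nrp2*, and the median over its CpGs was -1.33 points, beside -7.88 in the netrin group. In the BS libraries the mean differences were -5.32 in neuropilins and -10.9 in the netrin group. A list of 43 autosomal partner genes, which hold further ligands, co-receptors and signalling proteins of these receptors such as *Neo1*, *Dpysl2* and *Trio*, had 375 hypo-DMPs of 1464 body CpGs (25.6%), with means of 53.7% and 61.4% in shScr against 44.6% and 45.7% in shTet3. This count was 164 without shScr 2 and 229 without shTet3 1.

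Taken gene by gene, 50 members had at least 10 body CpGs tested. The mean was lower in shTet3 in 49 of them, and in 44 (88%) both shTet3 libraries lay below both shScr libraries. Over all genes with at least 10 body CpGs tested this share was 75.9%. The genes were not matched for their number of CpGs beyond this minimum, so the 2 shares are not strictly comparable. The 44 were 13 of 14 semaphorins, 7 of 7 plexins, 10 of 12 Eph receptors, 3 of 4 ephrins, 10 of 11 genes of the netrin group and 1 of 2 neuropilins. In none were both shTet3 libraries above both shScr libraries, and the 6 with overlapping groups were *Dcc*, *Efnb2*, *Epha2*, *Epha3*, *Nrp1* and *Sema6c*. In 15 genes the gap between shScr 1 and shScr 2 was larger than the change, and shScr 2 was above shScr 1 in 43.

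**Figure D2:**
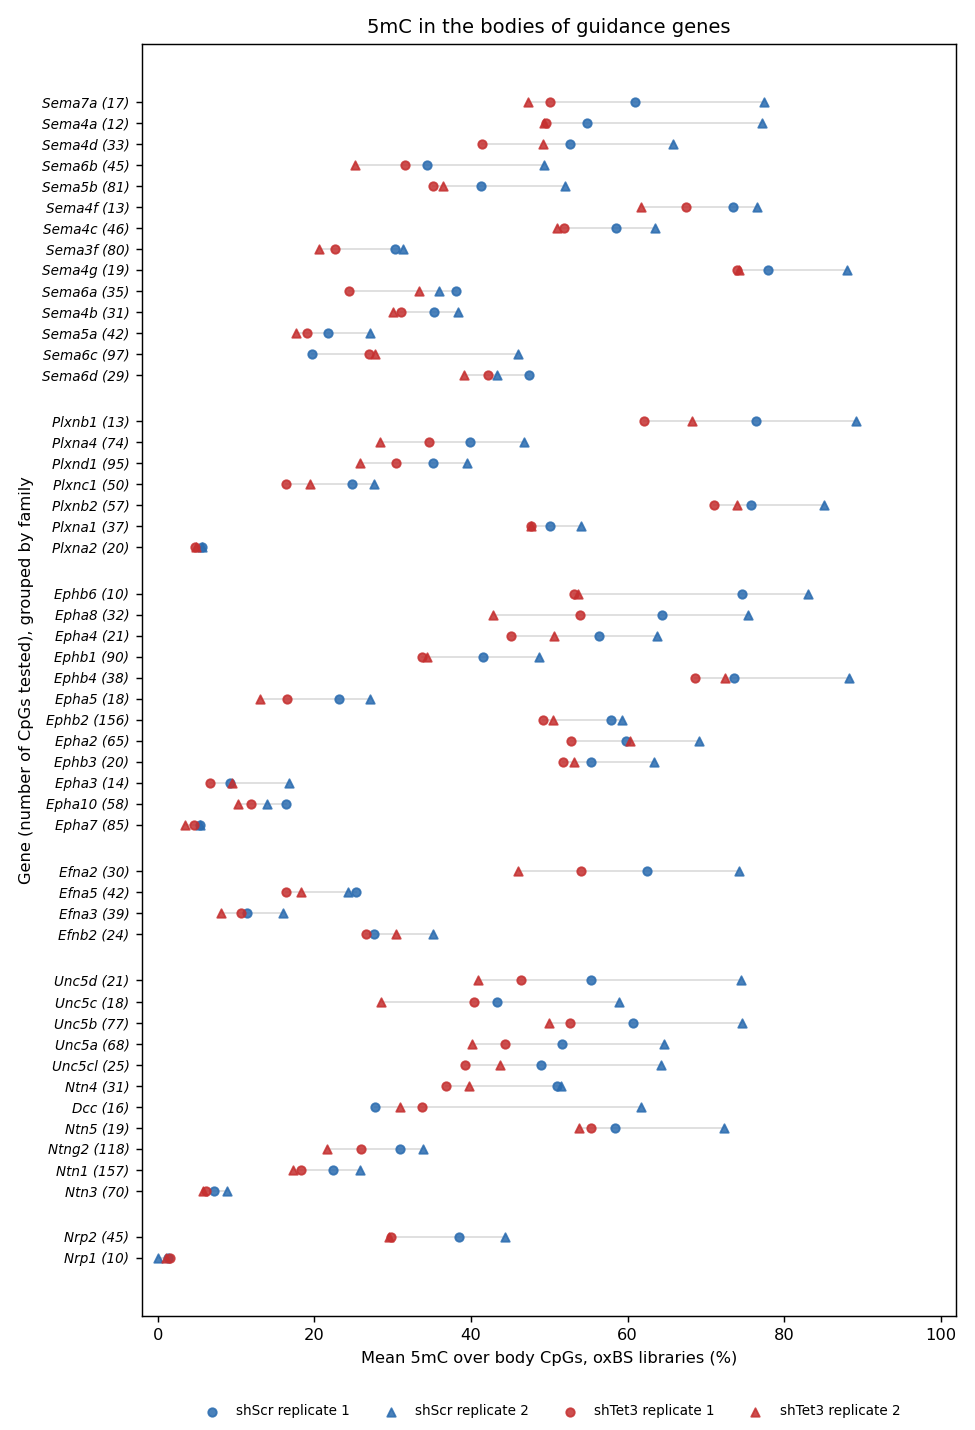
Mean 5mC over the body CpGs of each of the 50 genes with at least 10 CpGs tested (x axis, percent), 1 point per oxBS library, with genes grouped by family and ordered by their change. In 44 genes both red shTet3 points lie to the left of both blue shScr points, and the blue points are often far apart.

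Ligand genes were among both the largest and the smallest changes. *Sema7a*, a membrane-anchored semaphorin that acts through integrins and plexin C1, had 61.0% and 77.5% in shScr against 50% and 47.3% in shTet3 over 17 CpGs, a change of -20.5 points. *Sema5b* had 41.2% and 52.1% against 35.1% and 36.5% over 81 CpGs, with 18 hypo-DMPs. *Ntn1*, which encodes secreted netrin-1, had the most body CpGs tested (157) and a low level, 22.4% and 25.8% against 18.3% and 17.3%, with 19 hypo-DMPs. The groups did not overlap in any of these genes.

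The ligand genes *Ntn3*, *Efna3*, *Efna5* and *Ntng2* had changes between -8.62 and -2.01 points, and the groups did not overlap in any of the 4. *Ntn3*, another secreted netrin, had 7.14% and 8.84% in shScr against 6.22% and 5.74% in shTet3 over 70 CpGs. *Efna3*, a ligand anchored by a lipid tail, had 11.5% and 16% against 10.6% and 8.11% over 39 CpGs. Its relative *Efna5* had 25.4% and 24.3% against 16.4% and 18.3% over 42 CpGs, with control replicates closer to each other than to the shTet3 libraries. *Ntng2*, which encodes netrin-G2, had 30.9% and 33.9% against 26% and 21.7% over 118 CpGs and 22 hypo-DMPs.

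Among receptors, *Ephb6* had the most negative body change of the 50 genes, -25.4 points, with 74.6% and 83.1% in shScr against 53.2% and 53.7% in shTet3 over 10 CpGs. *Epha8* followed with -21.5 points, from 64.4% and 75.3% to 54.0% and 42.8%, and 19 of its 32 body CpGs were hypo-DMPs. *Unc5d*, a netrin receptor family member that also binds FLRT proteins, had 55.4% and 74.4% against 46.4% and 40.9% over 21 CpGs. The body of *Epha8* was also lower in the BS libraries (64.5% and 78.0% against 50.3% and 48.7%), whereas none of its promoter hypo-DMPs was called there. The body of *Ephb6* read 62.2% and 86.6% in shScr against 54.0% and 61.8% in shTet3 in BS. That is a change of -16.5 points, with 2 hypo-DMPs in BS and 5 in oxBS. The most negative body change in BS was -23.3 points, in another gene.

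The ephrin-B receptors *Ephb2* and *Ephb1* had the most body CpGs of their family. *Ephb2* had 57.9% and 59.3% in shScr against 49.2% and 50.5% in shTet3 over 156 CpGs, and *Ephb1* 41.6% and 48.7% against 33.8% and 34.4% over 90. At *Ephb2* the shScr replicates were 1.43 points apart and the change was -8.74. *Plxnd1*, the receptor of semaphorin 3E, had 35.2% and 39.5% against 30.5% and 25.8% over 95 CpGs, and *Plxna4*, a receptor for class 6 and, with neuropilins, class 3 semaphorins, 39.9% and 46.8% against 34.7% and 28.4% over 74. All 4 of these receptor genes had separate groups.

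The receptors with the least change had little 5mC in their tested CpGs. *Nrp1*, a co-receptor for class 3 semaphorins and VEGF, had 1.33% and 0% in shScr against 1.60% and 1.0% in shTet3 over 10 CpGs, and was the one gene with a higher mean in shTet3, by 0.633 points. *Plxna2* had 5.64% and 5.62% against 4.78% and 4.91% over 20 CpGs, and *Epha7* 5.46% and 5.35% against 4.63% and 3.48% over 85. The related co-receptor *Nrp2* had a higher level and a larger change, 38.4% and 44.3% against 29.7% and 29.6% over 45 CpGs.

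The position of CpGs along the genes accompanied these differences. Within 0.5 kb of the nearest TSS, 27 of 1557 member CpGs were hypo-DMPs (1.73%), and this share was 5.38% at 0.5 to 2 kb, 18.6% at 2 to 10 kb, 30.5% at 10 to 50 kb and 30.9% beyond 50 kb. Over all genes the shares in the same bins were 1.76%, 6.97%, 23.8%, 29.3% and 30.6%. The level in shScr rose with this distance up to the bin of 10 to 50 kb, where it was 66.3% and 76.9% in members. By annotation, introns of member bodies had 20% hypo-DMPs (300 of 1498), coding exons 17.6% (129 of 732) and UTR exons 6.75% (11 of 163). The level in shScr also differed, with 39.1% and 44.9% in introns, 43.4% and 53.4% in coding exons and 26.6% and 32.8% in UTR exons. No share over all genes stands beside these classes, so they are not given as a trait of guidance genes.

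**Figure D3:**
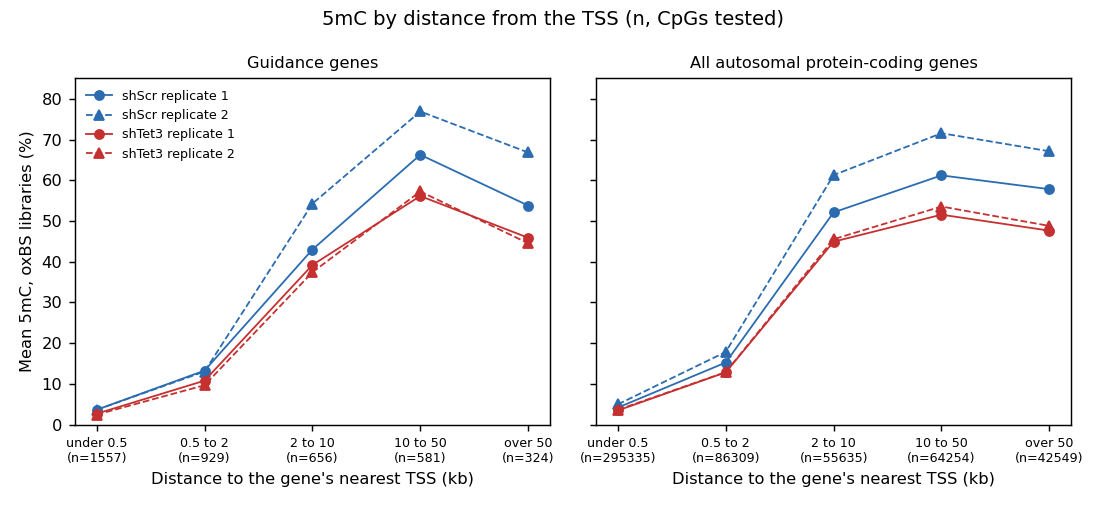
Mean 5mC in each oxBS library (y axis, percent) in 5 bins of distance from the gene's nearest TSS, for guidance genes (left) and all autosomal protein-coding genes (right), with the CpGs tested in each bin. In both panels the lines of shTet3 run together below those of shScr beyond 2 kb, and shScr 2 lies above shScr 1 there.

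Grouped by the level in shScr, none of the 752 member body CpGs below 10% was a hypo-DMP, beside 0.00928% over all genes. The share was 5.84% at 10 to 40% (all genes 7.69%), 27.2% at 40 to 70% (24.6%) and 36.8% above 70% (39.4%). These bins use the same shScr libraries as the change, so part of the trend is fixed by the thresholds.

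The 3 body hypo-DMPs with the largest pooled differences and separate groups, 1 per gene, lay in introns of *Sema5b* (chr16:35635582-35635643), *Epha1* (chr6:42314643-42314704) and *Unc5b* (chr10:60234152-60234213). The capitals mark the CpG in the forward strand of mm9, and the sequences are shown because each CpG fell by nearly 50 points.
Sema5b: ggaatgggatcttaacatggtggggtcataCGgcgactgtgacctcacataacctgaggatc
Epha1: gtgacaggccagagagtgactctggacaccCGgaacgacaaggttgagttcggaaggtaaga
Unc5b: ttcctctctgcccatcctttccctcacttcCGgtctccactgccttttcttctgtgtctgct

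At *Sema5b* the level was 78.0% (coverage 41) and 85.7% (14) in shScr and 29.4% (17) and 32.1% (28) in shTet3, a pooled difference of -48.9 points (*q* = 1.6e-05). At *Epha1*, an ephrin-A receptor, it was 86.7% and 100% against 30.8% and 68.8%, with coverages of 15 to 26. At *Unc5b*, a netrin receptor also found on blood vessels, it was 73.1% and 81.3% against 30.8% and 26.1%, with coverages of 13 to 26. These are thinly covered CpGs. In the BS libraries the *Sema5b* CpG read 69.2% and 80.0% in shScr against 70.3% and 83.3% in shTet3, which is a pooled difference of -0.444 points, and the test of a different change in BS and oxBS gave *q* = 0.16 there.

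The 3 hyper-DMPs lay in the bodies of *Sema6c* and *Ntn5*, and in none did the groups separate. *Sema6c* encodes a transmembrane semaphorin, and 2 of its CpGs in a coding exon (chr3:94976843-94976929) were hyper-DMPs. *Ntn5* encodes a netrin-like protein, and its hyper-DMP lay in an intron (chr7:52945338-52945399). The CpGs are in capitals in the mm9 forward strand.
Sema6c: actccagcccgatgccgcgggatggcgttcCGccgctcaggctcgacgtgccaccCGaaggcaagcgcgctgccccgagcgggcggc
Ntn5: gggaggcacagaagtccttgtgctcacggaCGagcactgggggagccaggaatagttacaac

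The first *Sema6c* CpG had 29.5% in shScr 1 and 66.7% in shScr 2, with 68.4% and 60.6% in shTet3 (*q* = 0.000446). The second had 15.4% and 59.1% against 48.7% and 55.9% (*q* = 0.00115). The *Ntn5* CpG had 16.3% and 40% against 54.3% and 40% (*q* = 0.00995). At all 3, shScr 1 was the library that stood apart, and shScr 2 was within the range of the shTet3 libraries or, at the second *Sema6c* CpG, above both. None of them was a hyper-DMP in the BS libraries.

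The *Sema6c* hyper-DMPs sat in a gene body in which the control replicates differed throughout. Over 97 CpGs the mean was 19.7% in shScr 1 and 46.0% in shScr 2, with 26.9% and 27.7% in shTet3 between them. shScr 2 exceeded shScr 1 by over 10 points at 81 of the 97 CpGs and the reverse was never seen. shScr 1 was below both shTet3 libraries at 67 CpGs and shScr 2 above both at 85. The BS libraries, made from the same DNA, had 20.6% and 49.3% in shScr against 25.6% and 26.3% in shTet3, with shScr 2 above shScr 1 by over 10 points at 90 of 97 CpGs. The direction of the change at *Sema6c* therefore depended on which control replicate was used. *Dcc* had a similar gap in its body, with 27.7% in shScr 1 and 61.7% in shScr 2 against 33.7% and 31.0% over 16 CpGs.

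**Figure D4:**
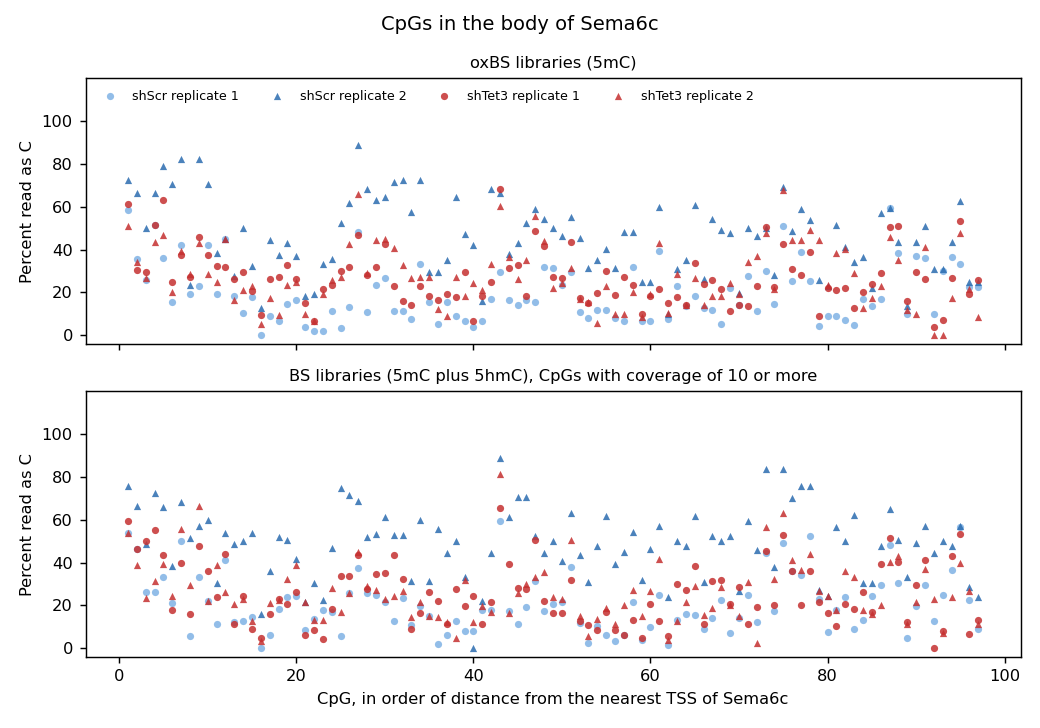
Percent of calls read as C at each of 97 CpGs in the body of *Sema6c* (y axis), in order of distance from the nearest TSS (x axis), in oxBS libraries (top) and BS libraries (bottom). shScr 2 lies above both shTet3 libraries at 85 CpGs and shScr 1 below both at 67 in the oxBS libraries.

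The BS libraries, which read 5mC and 5hmC together, gave nearly the same picture for the members. Promoters had 31 hypo-DMPs of 1654 CpGs (1.87%, equal to the 1.87% over all genes) and bodies 418 of 2324 (18%, beside 22.3%). These counts were 15 and 141 without shScr 2, 20 and 253 without shTet3 1, and 20 and 260 without shTet3 2 of the BS libraries. With all 4 libraries there was no hyper-DMP by the likelihood ratio test (0.0389% and 0.0974% over all promoters and bodies), with 3 promoter and 9 body CpGs higher in shTet3 by over 10 points at an unadjusted p below 0.05, and without shScr 2 of the BS libraries 2 promoter and 10 body CpGs were hyper-DMPs. The body mean was 39.7% and 46.3% in shScr against 33.8% and 33.1% in shTet3. Over the 48 genes with at least 10 body CpGs in both kinds of library, the changes in BS and oxBS lay within 5 points of each other in 43 genes and within 10 in all 48, with a median gap of 1.31. Of 419 body hypo-DMPs that could be tested in BS, 404 (96.4%) were lower in shTet3 there too and 188 (44.9%) were hypo-DMPs, and for the 32 in promoters these numbers were 30 (93.8%) and 10 (31.2%). Over all genes the shares were 96.3% and 49.4% in bodies and 91.7% and 37.5% in promoters. Because BS and oxBS libraries of a replicate share their DNA, this is a repeat of the measurement and not of the experiment.

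**Figure D5:**
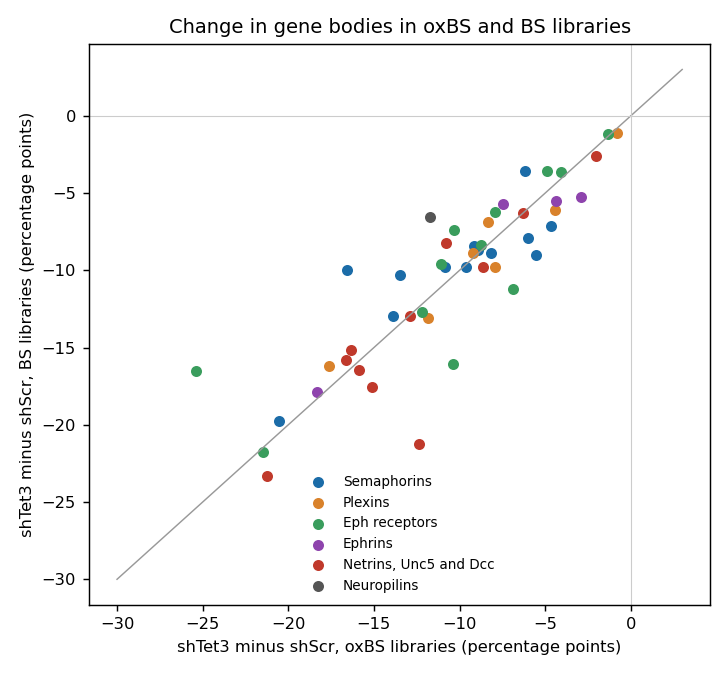
Change in the mean level of gene bodies (shTet3 minus shScr, percentage points) in oxBS libraries (x axis) and BS libraries (y axis) for the 48 genes with at least 10 CpGs in both, coloured by family, with the line of equal change. All 48 genes lie within 10 points of the line and 43 within 5.

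The difference between BS and oxBS, which estimates 5hmC, was small in these genes. Over member bodies it averaged 0.747 ± 0.276 points in shScr and 0.617 ± 0.0238 in shTet3 (mean ± SD, n = 2 each). In shScr, 12 of 2267 body CpGs (0.529%) had BS significantly above oxBS and 5 had BS below, an order that the chemistry cannot give, beside 0.546% and 0.269% over all bodies. Single libraries decided these counts, with 95 above and 21 below without shScr 2 of oxBS, 70 above without shScr 1 of BS, 52 below without shScr 2 of BS and 22 below without shScr 1 of oxBS. In shTet3 these numbers were 3 and 0 of 2444, beside 0.0312% and 0.0269%, and 8 and 10 without shTet3 2 of oxBS, 10 and 4 without shTet3 2 of BS and 1 and 0 without shTet3 1 of oxBS. The 3 lay in *Epha2*, *Ephb2* and *Plxnb2*. A CpG of *Ephb2* read 12.8% and 14.2% in oxBS and 29.4% and 33.0% in BS of shTet3.

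In promoters, 2 of 1581 CpGs had BS above oxBS in shScr (0.127%, beside 0.0841% over all promoters), both upstream of *Sema3e*, which encodes the secreted ligand of plexin D1. They read 0% and 0% in oxBS and 6.25% and 20% in BS, and 4.69% and 7.84% in oxBS and 28.6% and 27.0% in BS. No member promoter CpG had BS below oxBS in shScr, beside 0.0431% over all promoters, and none of 1741 was called in either direction in shTet3, beside 0.00918% and 0.00214%.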

How the data were processed

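OxRRBS libraries of mouse NPCs were grouped by their labels (shRNA, kind of library, replicate number). Per the labels and methods, trimming by the authors used Trim Galore in RRBS mode, alignment to mm9 used Bismark with bowtie2, and calls were written for methylKit, and tool versions are not given in the sources used here. The deposited coverage is a raw count of calls at a CpG in 1 library, and the deposited percent columns give its shares of C and T calls. Methylated counts were recovered as percent times coverage, and all 8 libraries list 1 common set of CpGs with 5 or more calls. No other columns were used. MspI fragments are selected by RRBS, so CpG-poor parts of genes are sparsely covered.

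CpGs with 10 or more calls in every library compared were tested by logistic regression on the shRNA (or on BS against oxBS, or on their interaction over 8 libraries), with a likelihood ratio test without overdispersion and Benjamini-Hochberg adjustment over all CpGs of the files. Calls needed *q* < 0.01 and pooled levels more than 10 percentage points apart, after the study's methods. The test was computed from the counts (Python 3.11.15, numpy 2.4.6, scipy 1.17.1, pandas 2.3.3) and tested on simulated data. Reads were copied by PCR without molecular identifiers, so the tests cover counting error only. Means are unweighted over CpGs, with two-sided exact permutation tests over libraries. Promoters of all TSSs of a gene's protein-coding transcripts were pooled, and 46 member body CpGs also lie in a promoter of another gene. All 4611 member CpGs were the forward C of a CG in the mm9 reference.

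Members and lists were chosen with earlier results of these data known. Genes named were those with 3 or more promoter hypo-DMPs, those with a hyper-DMP, the 2 genes of each family with the most body CpGs, the 4 with the most and the 4 with the least negative body change among those with at least 10 CpGs, and the genes of the 3 promoter and 3 body hypo-DMPs with the largest differences and separate groups. *Ephb6*, *Sema5b* and *Ntng1* were compared by TSS, and other genes were named as members of small counts, after their values were seen. No CpG was listed in the promoters of *Epha1*, *Epha3*, *Epha10*, *Sema3g*, *Sema4a* and *Unc5cl* or in the bodies of *Efna4*, *Sema3c* and *Unc50*, and those in the promoters of *Efnb3* and *Ntn1* were not covered well enough in oxBS.

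The pairing was checked from the replicate numbers in the labels. Same-numbered BS and oxBS libraries of 1 shRNA come from the same DNA (correlation of their deviations over member CpGs 0.556 in shScr and 0.262 in shTet3), whereas between same-numbered libraries of the shRNAs the correlation was 0.0026 in oxBS and -0.0391 in BS. Alternatives were coverage minimums of 5 and 20, Fisher's exact test, an overdispersion-corrected F test, a demand that both shTet3 libraries lie beyond both shScr libraries, the replicate block, wider promoters (-2 kb to +1 kb), bodies without promoters of other genes, members without *Unc50* and *Unc5cl*, read-weighted means and leaving out each library. Promoters of the 5'-most TSS alone were added after seeing the data.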

Additional observations from a re-analysis of the deposited data

Results flagged for a closer look

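At 3 of the 3723 member CpGs with enough coverage in all 8 libraries, the change with shTet3 differed between oxBS and BS libraries by the interaction test, all of them in bodies (3 of 2203, 0.136%, beside 0.316% over all gene bodies). At a coding exon CpG of *Epha2* (chromosome 4, 140864721) the pooled change was -27.8 points in oxBS and -4.57 in BS, a difference of -23.18 points (*q* = 0.00442), and oxBS read 96.9% and 98.2% in shScr and 55.7% and 82.7% in shTet3 where BS read 69.7% and 96.4% against 73.5% and 86.4%. At a coding exon CpG of *Plxna4* (chromosome 6, 32102852) it was -14.9 in oxBS and -38.5 in BS, a difference of 23.64 points (*q* = 0.0033), with 61.7% and 81.3% against 64.9% and 50.4% in oxBS and 88.0% and 91.2% against 55.0% and 45.8% in BS. At a coding exon CpG of *Sema6b* (chromosome 17, 56269455) it was -38.4 in oxBS and -18.1 in BS, a difference of -20.24 points (*q* = 0.00916), with 95.2% and 88.7% against 52.1% and 58.5% in oxBS and 72.5% and 81.7% against 59.8% and 57.7% in BS. At *Epha2* and *Sema6b* shScr had more signal in oxBS than in BS, an order that 5hmC cannot give. What lay behind these differences was not tested.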

How the results depend on the processing

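Of 147 alternative values 104 kept the direction of a mean difference or stayed within 1.5 times a count, and 43 counts moved further. Only the mean differences could be reversed, and 0 were. The replicate block cannot change a mean difference. With promoters from -2 kb to +1 kb there were 62 promoter hypo-DMPs in place of 36, and 8 genes with 3 or more, with *Plxnc1*, *Sema5b* and *Sema6b* added. With promoters of the 5'-most TSS alone, a setting chosen after seeing the data, there were 22. The overdispersion-corrected F test gave 0 hypo-DMPs in promoters, 0 in bodies, 0 hyper-DMPs in bodies and 0 genes with 3 or more. With 2 libraries per group that test can hardly call any CpG after adjustment, so its counts of 0 decide nothing. Demanding that both shTet3 libraries lie beyond both shScr libraries left 0 hyper-DMPs in bodies. The cause of the other moves was not tested.

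With the replicate block there were 35 promoter and 456 body hypo-DMPs and 2 body hyper-DMPs in oxBS, 28 and 435 in BS, and 5 CpGs in place of 3 with unequal change in BS and oxBS. The genes with 3 or more promoter hypo-DMPs were again 5, with *Epha6* in place of *Ephb3*. The block changed no other count by over 1.5 times, and shScr and shTet3 libraries share only a number.

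Leaving out 1 library at a time, with a lone library assumed to vary like the others, gave in oxBS 27 to 50 promoter and 196 to 587 body hypo-DMPs, 1 to 3 promoter and 2 to 12 body hyper-DMPs, 2 to 7 genes with 3 or more promoter hypo-DMPs, mean differences of -1.46 to -1.12 in promoters and -13.0 to -5.90 in bodies, and 164 to 470 hypo-DMPs in partner genes. In BS it gave 15 to 38 promoter and 141 to 551 body hypo-DMPs, 2 to 3 promoter and 1 to 10 body hyper-DMPs, and mean differences of -1.26 to -0.777 and -12.7 to -6.28. For body CpGs with BS above oxBS it gave 11 to 95 in shScr and 1 to 10 in shTet3, and with BS below oxBS 5 to 52 and 0 to 10. Without shScr 2 came the fewest body hypo-DMPs, the smallest body differences and the most body hyper-DMPs in both kinds of library. Coverage of about 50 calls per CpG limits single CpGs, and 2 libraries per group limit every comparison.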

Other observations

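Several guidance genes with fewer than 10 body CpGs tested, picked after their values were seen, had large losses. The 3 CpGs of *Sema3d*, a secreted semaphorin, had 57.1% and 78.3% 5mC in shScr and 35.9% and 34.2% in shTet3, and all 3 were hypo-DMPs. In its BS libraries the groups overlapped (42.3% and 74.5% against 40.3% and 49.6%) and 1 of the 3 was a hypo-DMP. The 5 body CpGs of *Epha1* had 81.3% and 90.9% against 41.7% and 68.0%, and none was covered well enough to be tested in BS. *Epha6*, an ephrin-A receptor, had 71.3% and 77.1% against 65.2% and 46.4% over 5 CpGs, and its BS libraries had 71.5% and 77.9% against 50.4% and 42.2%. *Efnb3*, a transmembrane ephrin, had 45.3% and 73.1% against 38.8% and 43.6% over 7 CpGs, and 55.6% and 78.6% against 48.4% and 43.4% in BS over 6.

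Some promoters held 5mC with fewer than 3 hypo-DMPs. *Sema3b*, a secreted semaphorin, had 45.7% and 61.9% in shScr against 39.4% and 42.3% in shTet3 over 7 CpGs. *Sema7a* had 15.7% and 14.7% against 13.5% and 11.6% over 28 CpGs and no hypo-DMP in its promoter, beside a body change of -20.5 points. In shScr 21 of these 28 CpGs were under 10%. At the promoter of *Sema4g*, a membrane-bound semaphorin, the groups overlapped (13.4% and 16.6% against 13.4% and 14.2%), and 10 of its 12 CpGs were under 10% in shScr.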
